A study of Mus musculus with 11 samples.

Results

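The HoxC cluster is a row of 9 homeobox genes on mouse chromosome 15, Hoxc13, Hoxc12, Hoxc11, Hoxc10, Hoxc9, Hoxc8, Hoxc6, Hoxc5 and Hoxc4, named here in the order of rising coordinates. The genes were taken by name from a RefSeq gene table and are 9 of its 21779 coding genes. They run from 102921131 to 103036856 in mm10 (chr15:102921131-103036856, 115.7 kb). What is described here is where the authors' peaks of GFP-tagged Smchd1 lie in each gene, within 5 kb of it, and in the stretches between the genes.

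The study pulled down Smchd1 with an antibody to GFP from neural stem cells of C57BL/6 mice, derived from E14.5 embryos and kept for up to 20 passages, and sequenced the DNA. The knock-in cells were homozygous for a Smchd1-GFP fusion allele, the wild-type cells went into the pull-down without a tag, and extract of whole cells was the input. In the MNase experiment, where chromatin was cut with micrococcal nuclease, knock-in cells gave 1 library of each sex, wild-type cells likewise, and whole cell extract gave 1, from female cells. In the sonication experiment, with 30 min of sonication in non-ionic detergent, only female cells were used and each of the 3 kinds of sample gave 2 libraries. Each experiment is given as 1 list of peak positions for all its libraries, so no peak has a value per library, a replicate spread, a depth or a test between knock-in and wild-type cells. Shares and counts below are therefore descriptions of the lists, and the lists hold no expression by which the cell type could be checked.

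Hox genes encode transcription factors with a homeodomain, and the order of the genes in a cluster parallels the order in which they are used along the body from neck to tail. Low-numbered HoxC genes act at neck and upper trunk levels and high-numbered ones in the lower trunk, the hindlimb, and hair and nails. Where they are not used, Hox clusters are classical targets of Polycomb repression. Smchd1 is a large chromatin protein of the SMC family, best known for its part in keeping the inactive X chromosome and some autosomal gene clusters silent.

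The sequences that mark fixed points in the cluster are given first, from RefSeq tables of build GRCm38.p6, the assembly of mm10. Of the 9 genes, only Hoxc4 has a promoter entry, and the cluster also holds antisense long non-coding RNA genes with entries and 2 miRNA genes. Each promoter is 300 bases, 250 before the start of the gene and 50 from it, and CG dinucleotides are in capitals. The Hoxc4 promoter, chr15:103034145-103034444 on the plus strand, is shown because its start lies in a stretch free of MNase peaks. The promoters of Gm29905, chr15:102998118-102998417, and Gm36878, chr15:102981014-102981313, both on the minus strand, are shown because their starts lie inside MNase peaks, beside Hoxc6 and in Hoxc9.
Hoxc4: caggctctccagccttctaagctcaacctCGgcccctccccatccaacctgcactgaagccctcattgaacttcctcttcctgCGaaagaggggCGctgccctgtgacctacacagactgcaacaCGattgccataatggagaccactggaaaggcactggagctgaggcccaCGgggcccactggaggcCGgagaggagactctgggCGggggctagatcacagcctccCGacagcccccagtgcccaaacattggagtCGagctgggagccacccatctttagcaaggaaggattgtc
Gm29905: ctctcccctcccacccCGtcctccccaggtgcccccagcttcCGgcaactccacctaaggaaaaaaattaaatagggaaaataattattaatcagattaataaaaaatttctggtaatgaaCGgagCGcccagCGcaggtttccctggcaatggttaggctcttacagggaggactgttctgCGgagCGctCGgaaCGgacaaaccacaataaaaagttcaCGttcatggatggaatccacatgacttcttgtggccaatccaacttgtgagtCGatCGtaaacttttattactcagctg
Gm36878: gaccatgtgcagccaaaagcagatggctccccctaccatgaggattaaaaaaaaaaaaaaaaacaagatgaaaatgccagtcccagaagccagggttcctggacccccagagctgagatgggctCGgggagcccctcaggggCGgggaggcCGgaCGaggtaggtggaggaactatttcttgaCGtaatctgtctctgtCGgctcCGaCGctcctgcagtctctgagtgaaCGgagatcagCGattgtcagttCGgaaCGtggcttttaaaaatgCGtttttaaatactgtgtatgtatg

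The Hoxc4 promoter held 9 CG, that of Gm29905 held 12 and that of Gm36878 held 13, beside a median of 7 over 32851 promoters and of 20 over the 214 promoters whose start lay in an MNase peak. All 3 printed promoters therefore had more CG than the median promoter and fewer than the median of those in peaks. Gm30528, an antisense record at the upper end of the cluster, has 4 further entries. Of these, 3 with starts within the Hoxc4 record, at 103032274, 103032276 and 103032280, held 3 CG each, below the median. The 3 starts lie within a few bases of each other, so their promoters are nearly the same sequence and not separate sites. The other entry, with its start above the cluster, held 12. All 4 of these starts lay outside MNase peaks. For the 3 close starts the next peak above was 170 to 176 bases away. It took in 74 to 80 bases of each promoter. Of 4 motifs searched on both strands, GGGCGG (the core of an Sp1 box) was in the promoters of Hoxc4 and Gm36878 and in 35.7% of all promoters, and TAATTA (a homeodomain-type core) was in that of Gm29905 and in 5.29% of all. The other motifs, TATAAA and GAGAGA, were in none of the 3, and were in 13.6% and 23.9% of all promoters. Each of the 3 promoters held 1 of the 4 motifs, so no matches of different motifs overlapped.

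The miRNAs of the cluster are miR-196a, whose gene Mir196a-2 lies between Hoxc10 and Hoxc9, and miR-615, whose gene Mir615 lies within the span of Hoxc5. Their mature forms are shown with the seed, bases 2 to 8, in capitals, because the first gene lies outside and the second inside MNase peaks; miR-196b, from the HoxA cluster, is added for its shared seed.
mmu-miR-196a-5p: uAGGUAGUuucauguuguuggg
mmu-miR-196a-2-3p: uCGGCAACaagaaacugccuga
mmu-miR-615-5p: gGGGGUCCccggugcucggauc
mmu-miR-615-3p: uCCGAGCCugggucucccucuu
mmu-miR-196b-5p: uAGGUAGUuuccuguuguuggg

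miR-196a-5p and miR-196b-5p share the seed AGGUAGU and differ at 1 base, A12C counted from the 5′ end of miR-196a-5p. In mouse embryos miR-196 is known to direct cleavage of the mRNA of Hoxb8, a gene of the HoxB cluster.

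MNase peaks reached all 9 HoxC genes, and they were dense in the middle of the cluster and sparse at both ends. Each gene had at least 1 peak overlapping it, where 4.13% of all coding genes did, and at least 4 within 5 kb, where 5.28% of all coding genes had any. Neighbouring genes shared peaks within 5 kb, so the 9 genes are not separate sites. Over the whole cluster, 49 peaks covered 70.3 kb, which is 60.8% of its length. The cluster held 39.2% of the 125 MNase peaks of chromosome 15 and 60.6% of the bases in them. From Hoxc10 to Hoxc5, a span of 50.6 kb, the covered share was 83.2%. From Hoxc13 to Hoxc11, 35.6 kb, it was 39.6%, and over the record of Hoxc4 it was 36.8%.

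**Figure D1:**
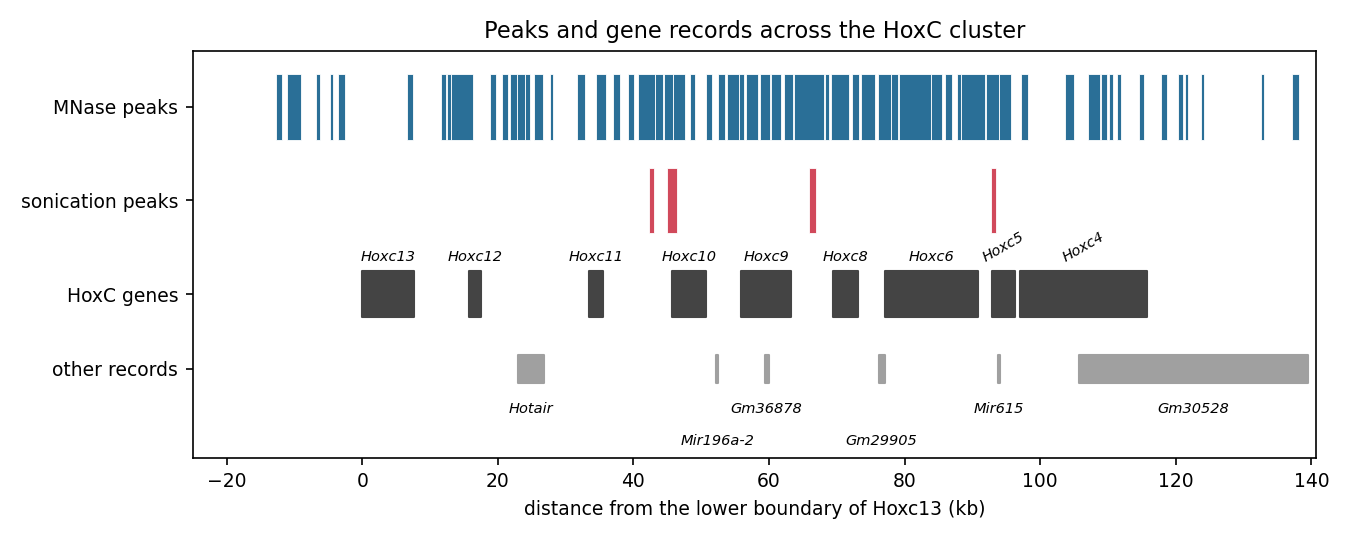
Map of the HoxC cluster and 25 kb on each side, with distance from the lower boundary of Hoxc13 in kb on the horizontal axis. Rows show MNase peaks (blue), sonication peaks (red), the spans of the 9 HoxC genes (dark) and other gene records (grey, with Gm30528 cut at the edge and the shortest records drawn at 0.3 kb). MNase peaks fill most of the span from Hoxc10 to Hoxc5, and the 4 sonication peaks all lie beneath MNase peaks.

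Hoxc13, a gene of hair and nail formation, was the least covered member. Its record, from 102921131 to 102928814, held 1 MNase peak of 0.9 kb at its upper end, and 11.7% of its bases were in peaks. The first 6.62 kb of it were free, the longest free run in the cluster. Hoxc12, from 102936826 to 102938609, was covered over 37.8% of its bases by the end of a 3.3 kb peak that began below it and took in its lower boundary, the end of the record with the lower coordinate. For Hoxc11, a gene of the hindlimb and lower trunk, from 102954526 to 102956701, the share was 48.3%, from 1 peak of 1.5 kb over its upper part, and its first 1.12 kb were free.

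Hoxc10, which is used at lumbar levels and in hindlimb motor neurons, lies from 102966796 to 102971898 and had 4 overlapping peaks over 53.0% of its bases. Both of its boundaries were inside peaks, and its longest free run, 1.65 kb, was in its upper part. Hoxc9, a gene of the thoracic spinal cord that holds back limb-level motor neuron programmes, lies from 102977032 to 102984444. Its 5 peaks covered 83.8%, with no free run over 0.45 kb. Coverage was thus higher in Hoxc9 than in any of the 4 genes on its lower side.

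Hoxc8, a gene of lower neck and upper trunk levels with a role in forelimb motor neuron pools, lies from 102990539 to 102994275 and had the highest share of the members, 92.0%. Its 2 peaks, of 2.7 and 1.05 kb, left 0.3 kb free between them. Hoxc6, a marker gene of forelimb-level motor neurons, lies from 102998226 to 103011882 and was covered over 90.1% by 7 peaks. It held the widest MNase peak of the cluster, 4.65 kb from 103000351 to 103005000, which adjoined the next peak without a free base to make 6.3 kb.

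Hoxc5, which takes part in forming phrenic motor neurons at neck levels, lies from 103014008 to 103017429 and was covered over 83.1% by 2 peaks that adjoined. Hoxc4, the neck-level gene at the upper end of the cluster, has the longest record, 18.8 kb from 103018097 to 103036856. Its 7 peaks, all wholly inside it and none wider than 1.65 kb, covered 36.8%. A run of 5.4 kb from 103019401 to 103024800 had no peak. The start of Hoxc4 in the promoter table, 103034395, is well above the lower boundary of its record and lay in another free run of 2.7 kb, 1344 bases above one peak and 1355 below the next.

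**Figure D2:**
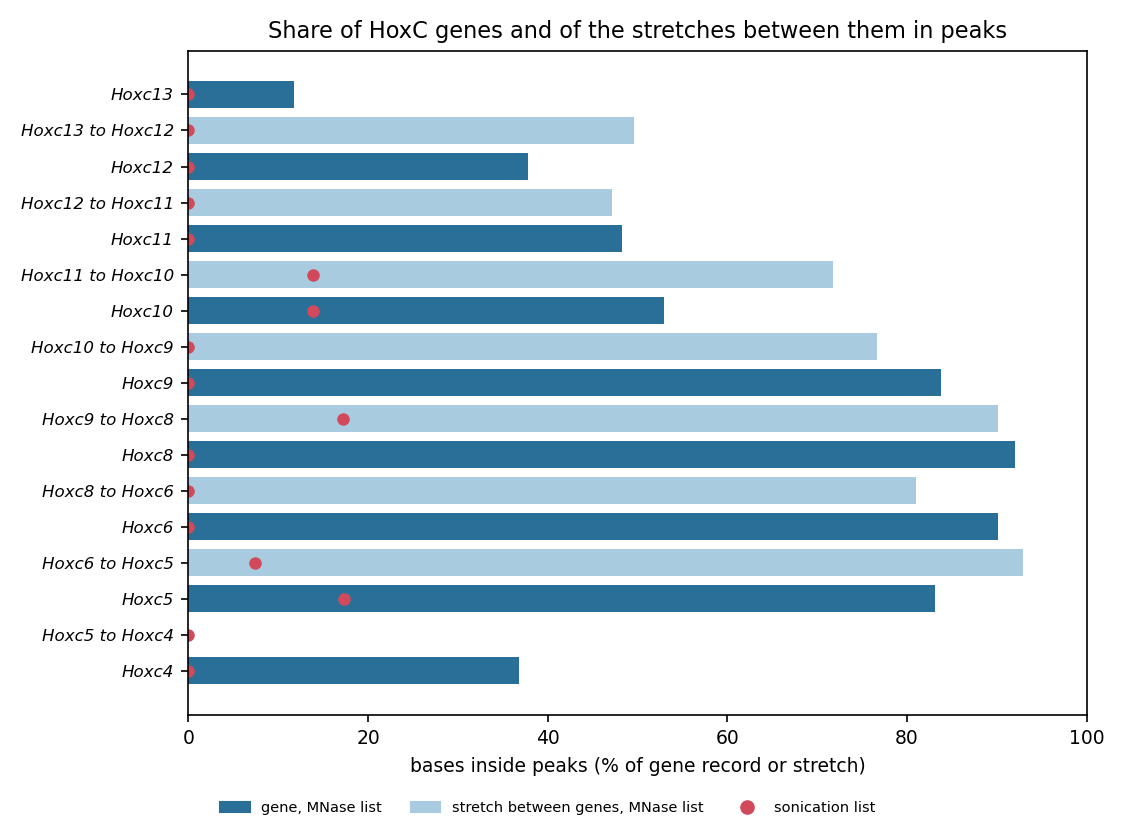
Bars give the percentage of bases in MNase peaks for each HoxC gene (dark) and each stretch between neighbours (light), from Hoxc13 at the top to Hoxc4 at the bottom, and red points give the same for sonication peaks. The genes from Hoxc9 to Hoxc5 lie between 83.1% and 92.0%, while Hoxc13, Hoxc12, Hoxc11 and Hoxc4 lie below 50%.

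Across the members the share in MNase peaks had a median of 53.0% and ran from 11.7% to 92.0%, and 5 of the 9 were covered over at least 50% of their bases. Among all coding genes, 0.188% (41 genes) reached 50%, and 27 of these 41 were Hox genes. The number of coding genes with a higher share was 14 for Hoxc8, 15 for Hoxc6, 18 for Hoxc9, 20 for Hoxc5, 39 for Hoxc10, 42 for Hoxc11, 50 for Hoxc12, 52 for Hoxc4 and 112 for Hoxc13. Lower boundaries were inside an MNase peak for 6 of the 9 genes, all but Hoxc13, Hoxc11 and Hoxc4, against 0.514% of all coding genes. Upper boundaries were inside a peak for 5, against 0.482% of all coding genes. The 4 genes Hoxc10, Hoxc9, Hoxc8 and Hoxc6 had both boundaries in peaks, against 0.142% of all coding genes, and Hoxc13 and Hoxc4 had neither.

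The stretches between the genes were covered much as the genes were. Together the 9 gene records, 63.7 kb, were covered over 58.1%, and the 8 stretches, 52.0 kb, over 64.1%. The order of these shares rests on the long record of Hoxc4. With Hoxc4 taken from its promoter-table start, a choice made after the values were seen, genes were at 65.1% and stretches at 57.8%. The stretch from Hoxc6 to Hoxc5 was covered over 92.9% and that from Hoxc9 to Hoxc8 over 90.2%. The widest of the 4 peaks that reached into the stretch between Hoxc9 and Hoxc8 measured 4.5 kb, from 102984751 to 102989250, with no gene record in it, and was the second widest of the cluster. From Hoxc8 to Hoxc6 the share was 81.0%, from Hoxc10 to Hoxc9 76.6% and from Hoxc11 to Hoxc10 71.8%. The stretch from Hoxc13 to Hoxc12 had 49.6% and that from Hoxc12 to Hoxc11, the longest at 15.9 kb, 47.1%. The short stretch of 0.667 kb between Hoxc5 and Hoxc4 had no peak.

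Of the other gene records in the cluster, Hotair, from 102944062 to 102947946 between Hoxc12 and Hoxc11, had 3 peaks over 82.1% of its 3.88 kb. Its transcript is a long non-coding RNA whose human counterpart is known for contacts with Polycomb proteins. Gm36878 and Gm29905, antisense records of 587 and 836 bases, lay wholly inside MNase peaks. Mir615 also lay wholly inside a peak of 1.95 kb. Mir196a-2, from 102973350 to 102973434, lay in a free run of 0.9 kb, 599 bases above one peak and 216 below the next. Gm30528, a long antisense record that runs from within Hoxc4 to above the cluster and has starts in both places, was covered over 25.3%.

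MNase peaks in HoxC were wider than most of the list, with a median of 1200 bp against 450 bp over all 2840 MNase peaks. Only 1 of the 49 had the smallest width in the list, 300 bp, against 38.2% of the whole list. Most neighbours were close: of 48 gaps between successive peaks, 10 were of 0 bases, 8 of 150 and 8 of 300, and 11 were over 1 kb. The length of a run of peaks depends on the gap allowed in it. With gaps of up to 150 bp filled, the longest run was 9.45 kb, at Hoxc6, and with gaps of up to 300 bp it was 13.4 kb, from 102983401 to 102996750, over 6 peaks from the end of Hoxc9 past Hoxc8. With gaps of up to 600 bp filled, 17 peaks joined into a run of 34.5 kb, from 102973651 to 103008150, that took in Hoxc9, Hoxc8 and most of Hoxc6. Peak starts in both lists lie on a grid of 150 bp, so widths and gaps move in such steps.

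**Figure D3:**
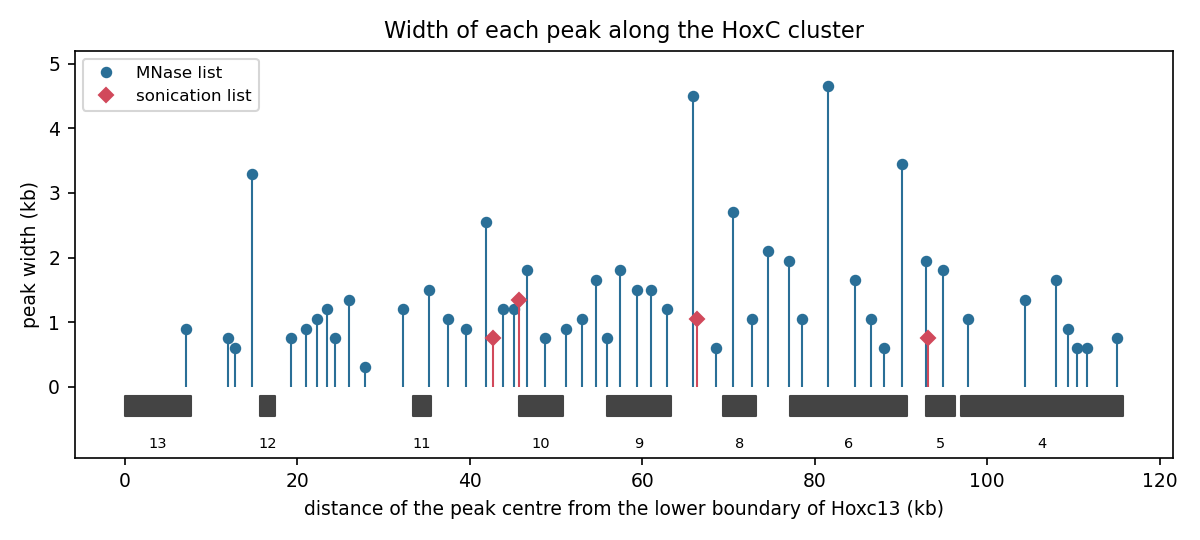
Each stem is a peak in the HoxC cluster, placed by the distance of its centre from the lower boundary of Hoxc13 (kb), with its width in kb as height, for the MNase list (blue circles) and the sonication list (red diamonds). Dark blocks are the genes, with their numbers. The widest MNase peaks, 4.65 and 4.5 kb, lie in Hoxc6 and between Hoxc9 and Hoxc8, and sonication peaks are at most 1.35 kb wide.

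The sonication list held 4 peaks in the cluster, all between Hoxc11 and Hoxc4, and none in or within 5 kb of Hoxc13, Hoxc12 or Hoxc11. They covered 3.9 kb, or 3.37% of the cluster. The first, 0.75 kb from 102963451 to 102964200, lay in the stretch below Hoxc10 and 2.60 kb from that gene. The second, 1.35 kb from 102966151 to 102967500 and the widest, took in the lower boundary of Hoxc10, with 645 bases below it and 705 from it on. The third, 1.05 kb from 102987001 to 102988050, lay almost midway between Hoxc9 and Hoxc8, 2.56 kb above Hoxc9 and 2.49 kb below Hoxc8. The last, 0.75 kb from 103013851 to 103014600, took in the lower boundary of Hoxc5, with 157 bases below it and 593 from it on, and ended 309 bases before Mir615.

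Only Hoxc10 and Hoxc5 were overlapped by a sonication peak, over 13.8% and 17.3% of their bases, where 2.92% of all coding genes were overlapped. Within 5 kb there was one at 6 of the 9 genes, Hoxc10, Hoxc9, Hoxc8, Hoxc6, Hoxc5 and Hoxc4, against 3.38% of all coding genes. These 6 shared the 4 peaks, so they are not separate sites. Outside the cluster, the nearest sonication peak was 354.6 kb below Hoxc13 and the next above Hoxc4 was 684.4 kb away. Apart from the pair at Hoxc10, neighbouring sonication peaks in the cluster were 19.5 and 25.8 kb apart.

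Every base of the 4 sonication peaks was also in an MNase peak. They lay in the MNase peaks of 2.55 kb below Hoxc10, of 1.2 and 1.8 kb over its lower boundary, of 4.5 kb between Hoxc9 and Hoxc8, and of 1.95 kb over the lower boundary of Hoxc5. Turned round, 5 of the 49 MNase peaks, and 5.54% of the MNase bases of the cluster, were shared with sonication peaks. Over all autosomes, 49 of 1646 sonication peaks (2.98%) overlapped an MNase peak by at least 1 bp, and 23 of those 49 were in Hox clusters. A nearer scale is the MNase coverage in HoxC itself, 60.8% of the cluster and 83.2% from Hoxc10 to Hoxc5. With so much covered, some overlap is likely for any peak placed there, and agreement between the 2 lists was not tested. All sonication peaks of HoxA (8), HoxB (6) and HoxD (5) overlapped an MNase peak too, so such overlap was not particular to HoxC. None of the authors' 11 broad domains was on chromosome 15.

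Outside the cluster MNase peaks were fewer, and on the lower side few lay beyond 20 kb. In windows of 5 kb counted from the lower boundary of Hoxc13, 15 of the 23 windows wholly inside the cluster were at least 50% covered by MNase peaks, and 1, in Hoxc6, was covered over 100%. In the 20 kb below Hoxc13, 5 peaks covered 5.1 kb, or 25.5%, a higher share than in Hoxc13 itself, with the nearest ending 2.53 kb from the gene. From 20 to 100 kb below it there was 1 more. In the 20 kb above Hoxc4, 5 peaks covered 3.0 kb, and the 100 kb above it took in 8. The 3 nearest coding genes on each side were Calcoco1, Atp5g2 and Atf7 below and Smug1, Cbx5 and Hnrnpa1 above. None of these neighbours had an MNase peak within 5 kb, which is near the share of all coding genes with one, 5.28%. Calcoco1 and Smug1, the closest, are 199.0 and 116.4 kb from the cluster. Sonication peaks were absent from 100 kb on both sides. Among the named neighbours, Atf7 alone had a sonication peak within 5 kb, where 3.38% of all coding genes had one.

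**Figure D4:**
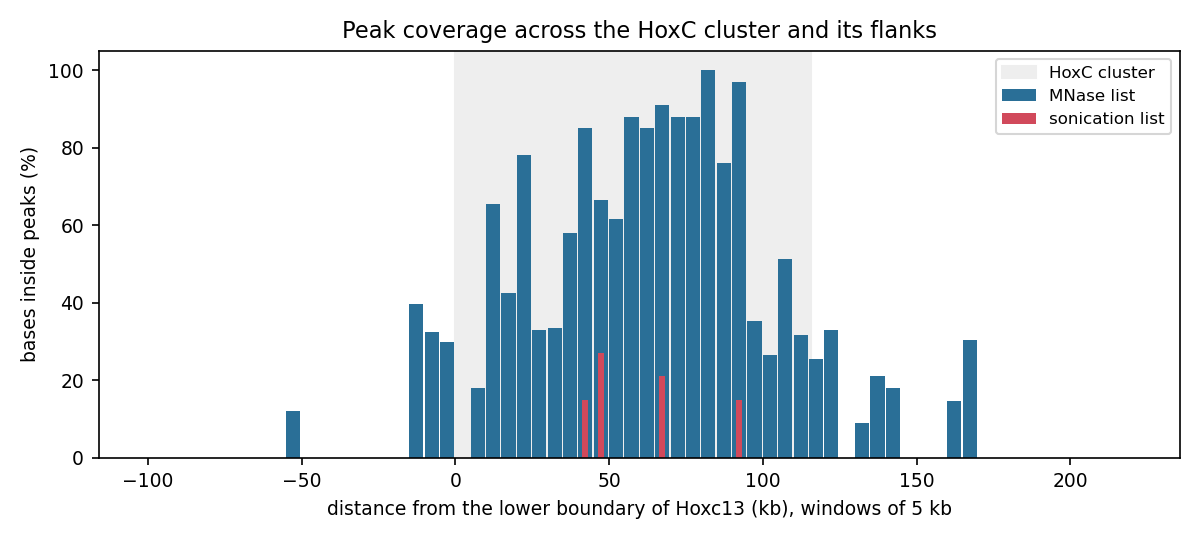
Percentage of bases in MNase peaks (blue) and sonication peaks (red) in windows of 5 kb, by distance from the lower boundary of Hoxc13 in kb, with the cluster shaded. MNase coverage reaches 100% in 1 window over Hoxc6, is 0 in the first window of Hoxc13 and is at most 39.6% in the flanks.

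Beside the other Hox clusters, HoxC was intermediate in MNase coverage, with the most peaks per Mb and peaks of moderate width. HoxC had 60.8% of its length in peaks, HoxA 82.0%, HoxD 70.1% and HoxB 31.5%. The median share per gene was 53.0% in HoxC, 92.1% in HoxA, 94.4% in HoxD and 44.3% in HoxB. The widest peak was 4.65 kb in HoxC, 13.8 kb in HoxA, 12.9 kb in HoxD and 2.25 kb in HoxB. HoxC had 423 peaks per Mb, HoxB 316, HoxA 275 and HoxD 268, though by number HoxB had 55 peaks and HoxC 49. Such counts depend on how close peaks were split, as filling gaps of up to 150 bp left 31 in HoxC. Shares and densities also depend on the span from first to last gene. That span was 173.9 kb in HoxB, 115.7 kb in HoxC, 105.5 kb in HoxA and 96.9 kb in HoxD. In HoxB, MNase peaks covered 42.2% of gene bodies and 23.4% of the stretches between genes, against 58.1% and 64.1% in HoxC. In the sonication list, HoxC had 3.37% of its length in peaks, HoxB 3.62%, HoxD 4.64% and HoxA 10.8%. Without values per library these differences between clusters were not tested.

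Genes with the same number in different clusters are paralogues, copies of an ancestral gene. HoxC had the highest share in none of its 9 paralogue groups. It had the lowest in 4, groups 10, 11, 12 and 13, and lay between its paralogues in the other 5, groups 4, 5, 6, 8 and 9. In those 5 groups the lowest share was that of the HoxB gene. HoxB has no gene in groups 10, 11 and 12, so HoxC was set there only beside HoxA or HoxD. Group 12 has only 2 genes, Hoxd12 and Hoxc12. In group 13, Hoxc13 had 11.7%, Hoxb13 26.1%, Hoxa13 71.4% and Hoxd13 100%. In group 8, Hoxc8 had 92.0%, Hoxd8 100% and Hoxb8 62%. In group 10, Hoxc10 had 53.0%, Hoxa10 87.6% and Hoxd10 97.2%. In the sonication list, Hoxc10 was covered over 13.8%, Hoxa10 over 20.7% and Hoxd10 over 13.8%. Hoxc5 was covered over 17.3%, Hoxa5 over 24.2% and Hoxb5 over 3.41%. In other groups HoxC had no base in sonication peaks where paralogues did. Hoxc6 had 0%, Hoxb6 20.6% and Hoxa6 6.37%. Hoxc8 had 0%, Hoxd8 32.7% and Hoxb8 23.6%. Hoxc9 had 0%, Hoxd9 42.9%, Hoxa9 21.1% and Hoxb9 11.4%, and Hoxc11 had 0%, Hoxa11 32.4% and Hoxd11 10.9%. Record lengths differ within a group (18.8 kb for Hoxc4, 2.02 kb for Hoxa4), which bears on shares. Of the starts in the promoter table, that of Hoxc4 lay outside MNase peaks, while 9 of 10 in HoxA, 9 of 10 in HoxD and 1 of 3 in HoxB lay inside. Among all coding genes with an entry, 0.691% of starts did. The 1 HoxC start, from a sparsely covered end gene, cannot stand for the other HoxC genes, which have no entry.

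**Figure D5:**
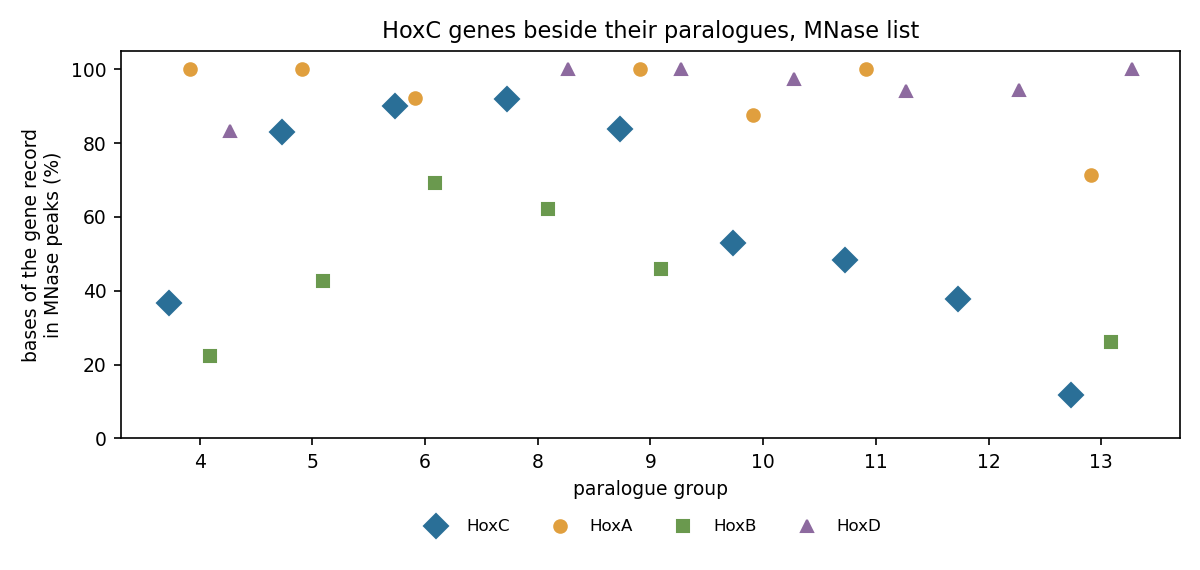
Percentage of each gene record in MNase peaks (vertical axis) by paralogue group (horizontal axis), for HoxC (diamonds), HoxA (circles), HoxB (squares) and HoxD (triangles). HoxC genes lie between 83.1% and 92.0% in groups 5 to 9 and at or below 53.0% in group 4 and groups 10 to 13.

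Genes of proteins that act with or on Hox genes had peaks at some members of each list only. Of 8 genes of Hox cofactors, homeodomain proteins of the TALE class that bind DNA with Hox proteins, 3 had an MNase peak within 5 kb, against 5.28% of all coding genes. Meis2 had 4, the widest of 1.35 kb, Meis1 had 1 of 0.75 kb and Pbx3 1 of 0.6 kb. None of the 8 had a sonication peak within 5 kb, where 3.38% of all coding genes had one. Of 5 upstream regulators of Hox genes, the caudal homeobox gene Cdx2 had 1 MNase peak of 0.6 kb and the retinoic acid receptor gene Rarb 1 sonication peak of 0.3 kb. That is the smallest width in the sonication list, shared by 66.6% of its peaks. Of 15 genes for Polycomb subunits and partners, Suz12 had 1 MNase peak of 0.6 kb and Jarid2 1 of 0.45 kb, and none had a sonication peak. Beside the shares of all coding genes, 5.28% for MNase and 3.38% for sonication, the counts of these small lists were not tested. The widest of these peaks, 1.35 kb at Meis2, was wider than the median MNase peak in HoxC, 1.2 kb. It was narrower than the widest there, 4.65 kb. The other peaks at these genes were at most 0.75 kb wide.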

How the data were processed

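Per the labels, 11 libraries from neural stem cells were grouped by title into 6 groups. The authors deposited 1 list of peak positions for the MNase experiment (2840 peaks), 1 for the sonication experiment (2196 peaks) and a list of 11 broad domains. Per the submitters' processing notes, the build was mm10 and bcl2fastq, Bowtie 0.12.9 and MACS2 were among the tools, in an order not stated. Cells of the MNase list, per the file headers a probe report, name SeqMonk as the origin of its peaks. The value column is empty, so only starts and ends in bp were used, all libraries of an experiment being pooled. How wild-type and extract libraries entered the lists, and how repeats were treated, was not stated in the labels or headers.

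Genes came from RefSeq for GRCm38.p6. Records below 3 Mb, except on Y, were left out, which left 21779 coding genes. All 9 HoxC names were found. The gene table gives spans without strand, exons or starts, so starts were taken from the promoter table (Hoxc4 only among the members) and otherwise both boundaries of the record were used. Coverage is the union of peak bases over the bases of a record or stretch, a peak counts for a gene when it comes within 5 kb, and lists overlap from 1 bp. The interval steps were tested on simulated data. Python 3.11.15 and SciPy 1.17.1 were used. Counts per library were not analysed here, so depth was unknown and no library was compared with another. Background shares over all coding genes are given for scale and are not a test. All 9 members, other records in the cluster and 3 coding neighbours per side were named. Members and lists were chosen with earlier results of these data known. Some genes of the cofactor list are not reported here.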

Additional observations from a re-analysis of the deposited data

How the results depend on the processing

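Of 32 alternatives to 12 results, 27 left the value about where it was (counts within 1.5 times, shares within a 95% Wilson interval over steps of 150 bp, which covers counting error only). Among the 27, the mean over the 9 genes gave a sonication share of 3.46% for gene bodies in place of 2.04%, inside that interval. Neighbouring steps within 1 peak are not independent, which the interval ignores. The exceptions were 5. Counting only peaks that overlap a gene, or that come within 1 kb of it, left 2 HoxC genes with a sonication peak in place of 6, while 10 kb gave 7. Counting MNase peaks with gaps of up to 150 bp as 1 left 31 in place of 49. Taking Hoxc4 from its start in the promoter table, chosen after seeing the data, gave a covered share of 65.1% for the genes in place of 58.1%, and of 57.8% for the stretches between them in place of 64.1%, which reverses their order. This follows from moving the sparsely covered lower part of the Hoxc4 record out of the genes. All 9 genes kept an MNase peak with no flank, and with only peaks wider than 300 bp. No paired analysis was possible because the lists pool the libraries and no result comes from a test, and leaving out a library was not possible for the same reason. Depth per library was unknown, so a gap in a list may be a place below the caller's threshold.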

Other observations

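The miRNA genes of the other Hox clusters were set beside those of HoxC. In HoxC, Mir196a-2 had no base in an MNase peak and Mir615 was covered over 100%. In HoxA, Mir196b was covered over 100%, inside a peak of 13.8 kb. In HoxB, Mir196a-1, which yields the same miR-196a-5p as Mir196a-2, was covered over 36.3% and Mir10a over 100%. In HoxD, Mir10b was covered over 100%. Mir196a-2 was thus the only one of these 6 genes outside MNase peaks, by 216 bases on a peak grid of 150 bp. None of the 6 overlapped a sonication peak, where 2.92% of all coding genes did. For scale, MNase peaks covered 31.5% to 82.0% of each Hox cluster and sonication peaks 3.37% to 10.8%. The counts over these short records were not tested. The 6 miRNA genes were chosen after seeing the data.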
